A study of Gallus gallus with 16 samples.

Results

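TIMP2 and TIMP3, the tissue inhibitors of metalloproteinases that could be followed in these chicken cells, responded very differently to lipopolysaccharide and procyanidin B1. TIMP3 rose after LPS, fell after PB1 and rose furthest when both were given. Its rise over LPS alone was no longer called when replicates were averaged in pairs. No comparison moved TIMP2, unlike TIMP3, past the threshold for a call. Both were chosen by gene symbol through their curated RefSeq accessions, NM_204298.2 for TIMP2 and NM_205487.3 for TIMP3, and they are 2 of the 6492 transcripts in the table, of which 1697 carry a gene symbol here. The cells were HD11, an established line that the labels describe as macrophage-like, in 4 groups of 4 libraries. Control cells (CTR) received PBS, the LPS group 100 ng/mL of lipopolysaccharide, which Gram-negative bacteria carry on their surface, and the PB1 group 100 μg/mL of procyanidin B1, a plant polyphenol. The LPS + PB1 group had PB1 for 12 h before the LPS. LPS is given as 6 h in the labels and 12 h in the methods of the study, the methods count 3 samples per group where the labels list 4, and the treatment protocol in the labels names another compound, SeMC, in the medium, so the groups follow the treatment label of each sample. All groups are the same cell line, and nothing in the labels says that the libraries of a group came from separate cultures, so p-values measure the spread between these libraries, which may be technical.

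TIMPs are small secreted proteins that bind the active site of metalloproteinases and block it. TIMP2 inhibits most matrix metalloproteinases (MMPs) and also takes part with MMP14 in activating pro-MMP2 at the cell surface, and in mammals it is expressed rather constantly. TIMP3 binds to the extracellular matrix and has a wider range, which takes in the sheddase ADAM17, the enzyme that releases TNF in mammals, and the aggrecan-cleaving ADAMTS enzymes. Mammalian TIMP3 is known as an inducible gene, and mesenchymal cells express it highly.

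TIMP3 lies on chromosome 1, from 53137054 to 53174022 in the GRCg7b assembly, and the RefSeq annotation gives it 1 transcript. Its whole span sits inside SYN3 (53068092 to 53272902), the gene of a synaptic vesicle protein, which was not analysed here. Whether the counting used strand is not given in the sources used here, so reads from exons of both genes that overlap could not be told apart. TIMP2 lies on chromosome 18, from 10393188 to 10404241. RefSeq gives it 2 transcripts, and the predicted one, XM_046901967.1, was not analysed here, so the value of TIMP2 may leave out part of its reads. TIMP4, known only from predicted transcripts, was not analysed.

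The reads inferred from the deposited values numbered 4173989 to 4414942 per library. The study reports a lower average number of reads per sample, and this difference was not resolved here. TIMP3 held 3599 to 43867 of them and TIMP2 21459 to 32378, so counting error alone was at most 1.67% of a TIMP3 value and 0.68% of a TIMP2 value. Levels are given as normalized signal, the deposited value per 1000000 of the library's total times its TMM factor. Fewer cells of a type and less RNA per cell cannot be told apart in such bulk samples. In 3 of the 4 groups, replicates 1 and 2 were close to each other and far from replicates 3 and 4. In CTR, LPS and LPS + PB1 the chi-square of the reads per degree of freedom was 1.17 to 6.82 for libraries of 1 pair and 20.04 to 64.41 for libraries of different pairs. In the PB1 group it was 1.49 to 5.32 within and 4.62 to 12.38 between. The lowest of these values, 1.17 for replicates 1 and 2 of CTR, was close to what counting noise alone would give. Whether libraries of a pair are repeats of the same sample was not tested, and all 16 were kept. TIMP3 is also given within the pairs, and for the other genes the pairs are given mainly where they end a call.

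The macrophage label was checked against marker genes. Few of the 46 macrophage markers could be matched. Of these CYBB, a subunit of the phagocyte NADPH oxidase, had 0 reads in all 16 libraries. MRC1, a mannose receptor, had at most 3 reads and FCER1G, a signalling chain of Fc receptors, at most 4. Of 32 fibroblast markers 10 were matched, and COL1A2, a chain of type I collagen, had 69136 to 190398 reads. DCN, the matrix proteoglycan decorin, had 7217 to 29570. MEOX2, another of the fibroblast list, had at most 5. These 3 macrophage markers were therefore absent or near 0 in every group, where COL1A2 and DCN were abundant.

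TIMP3 had a normalized signal of 1522, 1508, 1303 and 1277 in CTR replicates 1 to 4. It was 3212, 3339, 3398 and 3378 in the LPS group, and 863, 857, 842 and 861 in the PB1 group. In LPS + PB1 it reached 5441, 5638, 9338 and 9441. No group overlapped with another, and the order of the means was PB1 at 856 ± 9.71 (SD, n = 4), CTR at 1403 ± 130.2 (SD, n = 4), LPS at 3332 ± 83.7 (SD, n = 4) and LPS + PB1 at 7465 ± 2225 (SD, n = 4). In single comparisons of groups, 33.3% to 46.8% of the transcripts tested did not overlap. The share of transcripts without overlap in every comparison is not given here. The libraries of PB1 were the closest to each other, with a coefficient of variation of 1.13%, against 2.51% in LPS, 9.29% in CTR and 29.8% in LPS + PB1.

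The large spread in LPS + PB1 lay between the pairs of replicates. Replicates 3 and 4 had a mean of 9389.7 and replicates 1 and 2 of 5539.7, a 1.69-fold difference, whereas the members of a pair differed by 1.04-fold and 1.01-fold. Of 4651 transcripts, 12.5% were at least as far apart between the pairs of this group as TIMP3, and the median transcript differed by 1.17-fold. In CTR the pairs stood the other way round, with replicates 1 and 2 at 1515 and replicates 3 and 4 at 1290.2. The pairs differed by 1.03-fold in LPS and 1.01-fold in PB1.

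**Figure D1:**
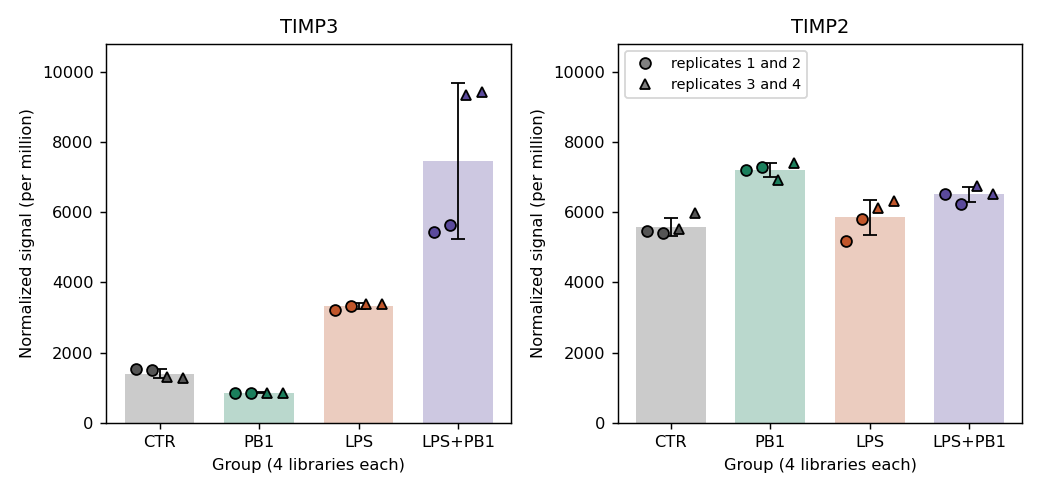
Normalized signal (per 1000000) of TIMP3, left, and TIMP2, right, in each library of the 4 groups. Bars are means of 4 libraries, error bars are SD, circles are replicates 1 and 2 and triangles replicates 3 and 4. The TIMP3 libraries of LPS + PB1 split into 5441 and 5638 against 9338 and 9441, and all lie above the other groups, while TIMP2 stays between 5188 and 7409.9.

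TIMP2 covered a much narrower range. CTR replicates 1 to 4 had 5472, 5408, 5511 and 5974, and the LPS replicates 5188, 5797, 6136 and 6327. The PB1 replicates had 7206, 7294, 6931 and 7409.9, and those of LPS + PB1 6524, 6240.1, 6759.8 and 6516. The LPS libraries overlapped with those of CTR and of LPS + PB1. The PB1 libraries lay above all others, and those of LPS + PB1 above those of CTR. The lowest mean was that of CTR at 5591 ± 258 (SD, n = 4), followed by LPS at 5862 ± 500.0 (SD, n = 4), LPS + PB1 at 6510.2 ± 213 (SD, n = 4) and PB1 at 7210.3 ± 204 (SD, n = 4). In this order the neighbours CTR and LPS, and LPS and LPS + PB1, overlapped. The libraries of LPS + PB1 and PB1 did not, but limma gave no call for that pair either, as stated with the comparison.

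The comparison of LPS with CTR asked what the bacterial stimulus does alone. LPS raised TIMP3 2.38-fold (log2 fold change 1.25, standard error 0.09, limma adjusted p = 3.73e-06). Calls needed a limma adjusted p no higher than 0.05 together with a change of 1.5-fold or more. Of the 4514 transcripts tested 16.7% were called, 9.81% as higher in LPS and 6.89% as lower, and 31.7% passed the limit on p alone. The LPS and CTR libraries did not overlap for TIMP3, as for 33.9% of the transcripts. Replicates 1 and 2 alone gave TIMP3 a log2 fold change of 1.11, and replicates 3 and 4 gave 1.39. TIMP2 differed by 0.07 on the log2 scale (limma adjusted p = 0.672), with a 95% interval from -0.17 to 0.30. A change of TIMP2 by 1.5-fold thus lay outside this interval, and a change inside it could not be told from no change. With the means of the pairs of replicates as 2 samples per group, the interval ran from -0.49 to 0.62. That wider interval takes in a rise of 1.5-fold.

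Next, PB1 was compared with CTR, which asked what the compound does to resting cells. TIMP3 fell 1.63-fold (log2 fold change -0.71, standard error 0.07, limma adjusted p = 6.55e-06), in a comparison where 20.9% of 4485 transcripts were called, 10.4% as lower and 10.5% as higher. Replicates 1 and 2 gave -0.82 and replicates 3 and 4 gave -0.60, the latter just past the fold limit. On the means of the pairs TIMP3 had a limma adjusted p of 0.00426. TIMP2 was higher by 0.37 on the log2 scale, with a standard error of 0.07 and a limma adjusted p of 0.00121. This 1.29-fold difference lay under the limit of 1.5, and TIMP2 was not called. Without that limit 43.7% of transcripts passed, and in 42.3% the 2 groups did not overlap, as for both TIMPs. When the means of the pairs of replicates were taken as 2 samples per group, the limma adjusted p of TIMP2 was 0.113.

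With both agents, TIMP3 was 5.16-fold higher than in CTR (log2 fold change 2.37, standard error 0.20, limma adjusted p = 2.05e-05). Here 17.7% of 4495 transcripts were called, 8.94% as higher and 8.77% as lower, 31.1% passed on p alone, and the groups did not overlap for 33.3%, TIMP3 and TIMP2 among them. Among the transcripts tested, 3.11% changed by at least as much as TIMP3. In the other comparisons with CTR this share was 7.33% for LPS and 17.7% for PB1. For LPS + PB1 against LPS it was 8.93%, and for LPS against PB1 6.96%. The log2 difference of TIMP3 between LPS + PB1 and CTR was 1.87 in replicates 1 and 2 and 2.86 in replicates 3 and 4. TIMP2 differed by 0.22 (limma adjusted p = 0.125, 95% interval from -0.004 to 0.444).

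The comparison of LPS + PB1 with LPS asked how PB1 alters stimulated cells, and TIMP3 moved in the opposite direction from that in resting cells. It was 2.17-fold higher in LPS + PB1 (log2 fold change 1.11, standard error 0.20, limma adjusted p = 0.003). Calls were made for 17.7% of 4546 transcripts, 7.48% as higher and 10.2% as lower, 32% passed on p alone, and the groups did not overlap for 34.8%. The log2 difference of TIMP3 was 0.76 in replicates 1 and 2 and 1.47 in replicates 3 and 4. With the pair means as 2 samples per group the same 1.11 had a limma adjusted p of 0.148, which ends the call. TIMP2 differed by 0.15 (limma adjusted p = 0.294, 95% interval from -0.09 to 0.40).

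Against PB1 alone, LPS + PB1 raised TIMP3 8.43-fold (log2 fold change 3.08, standard error 0.19, limma adjusted p = 5.28e-07), the largest difference of TIMP3 among the 6 comparisons made. Of 4518 transcripts 29.3% were called, 14.5% as higher and 14.9% as lower, 49.4% passed on p alone, and 4.03% changed by at least as much as TIMP3. Its log2 difference was 2.69 in replicates 1 and 2 and 3.46 in replicates 3 and 4, with a limma adjusted p of 0.00131 on the pair means. TIMP2 differed by -0.15 (limma adjusted p = 0.231, 95% interval from -0.36 to 0.07), although its libraries did not overlap between these groups, as for 46.8% of transcripts. LPS alone and PB1 alone differed for TIMP3 by 1.96 on the log2 scale (limma adjusted p = 2.56e-09, and 0.000297 on the pair means). The difference was 1.93 in replicates 1 and 2 and 1.99 in replicates 3 and 4. Here 25.1% of 4529 transcripts were called, 14.1% as higher and 11% as lower in LPS, and neither TIMP overlapped, as for 45.6%. TIMP2 differed between these groups by -0.30 (limma adjusted p = 0.0228), a 1.23-fold difference under the limit, where 47.5% of transcripts passed on p alone. Blocking on the replicate number gave it a limma adjusted p of 0.0745, against 0.271 on the pair means and 0.0223 to 0.0607 with each library left out, and above 0.05 without LPS replicate 1, PB1 replicate 1 or PB1 replicate 2. These 6 comparisons share libraries and are not independent of each other.

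**Figure D2:**
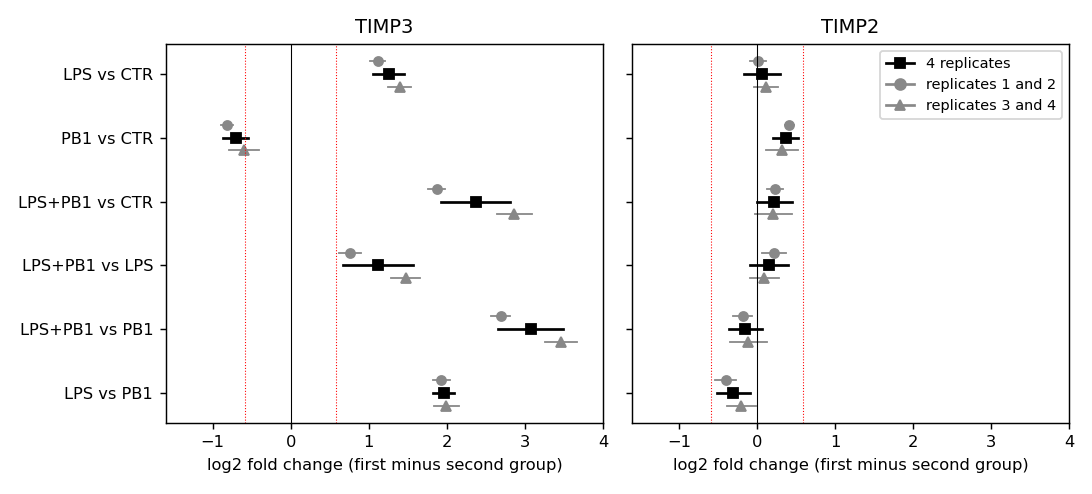
Log2 fold change (first minus second group) of TIMP3, left, and TIMP2, right, in 6 comparisons. Black squares with 95% intervals use 4 replicates per group, grey circles replicates 1 and 2, grey triangles replicates 3 and 4, and dotted lines mark a fold change of 1.5. TIMP3 runs from -0.71 (PB1 vs CTR) to 3.08 (LPS + PB1 vs PB1), and the squares of TIMP2 all lie inside the dotted lines.

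Whether the effect of LPS differed with and without PB1 was tested with the interaction of the 2 treatments over all 16 libraries. For TIMP3 the interaction was 1.82 on the log2 scale (standard error 0.22, limma adjusted p = 4.38e-06), where 44.9% of 4651 transcripts had an adjusted p of at most 0.05 (22.2% with a positive interaction and 22.7% with a negative one). LPS alone changed TIMP3 by 1.25 and PB1 alone by -0.71, so that these log2 effects added together would give a normalized signal of 2039. The geometric mean of the LPS + PB1 libraries was 7212, or 3.54-fold higher. Replicates 1 and 2 gave an interaction of 1.57 and replicates 3 and 4 of 2.07, and it was 1.82 with a limma adjusted p of 0.0118 on the means of the pairs. For TIMP2 it was -0.21 (limma adjusted p = 0.192, 95% interval from -0.48 to 0.06).

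**Figure D3:**
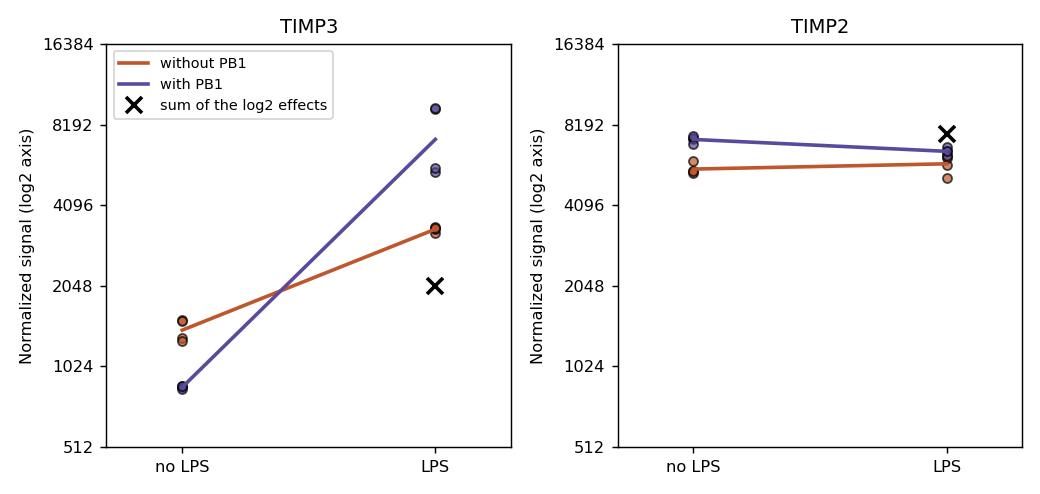
Normalized signal (log2 axis) of TIMP3, left, and TIMP2, right, without and with LPS, for cells without PB1 and with PB1. Points are libraries, lines join geometric means, and the cross marks the level at which the log2 effects of LPS and PB1 would simply add. The lines of TIMP3 cross, and its LPS + PB1 libraries (5441 to 9441) lie above the cross at 2039.

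The balance of the 2 inhibitors was followed as the ratio of the TIMP3 to the TIMP2 value within a library, which does not depend on the scaling of the library. Because transcript length enters each value, only changes of this ratio can be read, not which protein was more abundant. The ratio was 0.278, 0.279, 0.236 and 0.214 in CTR and 0.619, 0.576, 0.554 and 0.534 in LPS. It was 0.12, 0.118, 0.121 and 0.116 in PB1 and 0.834, 0.904, 1.38 and 1.45 in LPS + PB1. The 4 groups did not overlap, and how often this holds for ratios of other transcripts is not given here. Relative to CTR the ratio was 2.28-fold higher in LPS, 2.11-fold lower in PB1 and 4.43-fold higher in LPS + PB1, and LPS + PB1 exceeded LPS 1.94-fold and PB1 9.33-fold. Each of the 6 comparisons between groups gave an exact permutation p of 0.0286 (two-sided, 4 against 4 libraries), the smallest that this design allows, and also 0.0286 after Benjamini-Hochberg adjustment over the 6. Groups that do not overlap always give this p. The test counts each library as separate, although those of CTR, LPS and LPS + PB1 fell into pairs of replicates. Across the 16 libraries the log2 levels of TIMP3 and TIMP2 had a Pearson r of -0.16 and a Spearman rho of -0.24, which is a description of libraries that fall into 4 groups.

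**Figure D4:**
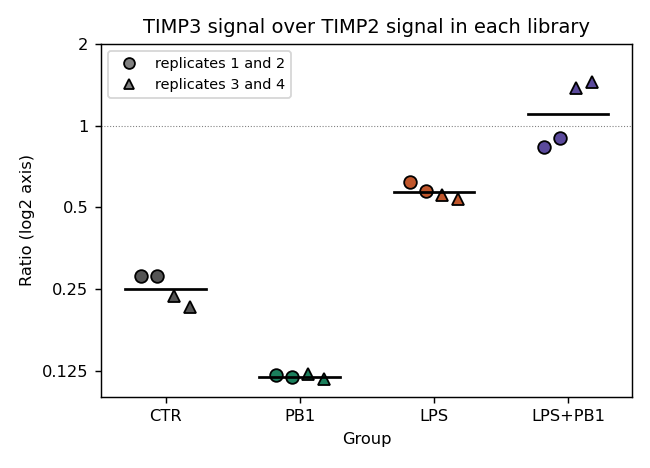
Ratio of the TIMP3 to the TIMP2 value (log2 axis) in each library by group, with circles for replicates 1 and 2, triangles for replicates 3 and 4 and lines at the geometric mean. The ratio stays near 0.119 in PB1, 0.25 in CTR and 0.57 in LPS, and the LPS + PB1 libraries lie from 0.834 to 1.45.

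Of a list of 95 genes of the metalloproteinase system, 10 were matched to a transcript, and 7 of these passed the filter on low values. No other inhibitor, ADAMTS enzyme or plasminogen activator of the list was matched. The matched genes also do not include MMP14, MMP2 or ADAM17, so these partners of the TIMPs were not followed. Of the proteases, MMP9 (gelatinase B) had at most 1 read in any library and MMP13 (collagenase 3) had 0, which allows up to 3 reads per library. KDR, a receptor of vascular endothelial growth factor that mammalian TIMP3 binds, had 1 to 21 reads. The list of 7 had a median log2 fold change of -0.27 in LPS and -0.26 in PB1 against CTR, beside 0.00 and 0.01 over all transcripts. In the other comparisons of groups it ran from -0.37 (LPS + PB1 against LPS) to 0.34 (LPS against PB1). A shift of the list was not tested.

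MMP10, or stromelysin-2, an MMP that degrades proteoglycans and activates other MMPs, fell where PB1 was present. It had 214, 194, 364 and 372 in CTR and 213, 201, 251 and 240.4 in LPS, against 18.7, 19.5, 15 and 9.56 in PB1 and 63.8, 68.1, 54 and 53.8 in LPS + PB1. The CTR and LPS libraries overlapped, and both groups lay above the groups with PB1. Between LPS and CTR MMP10 was not called. Its log2 fold change there was 0.02 in replicates 1 and 2 and -0.58 in replicates 3 and 4. MMP10 was 18.1-fold lower in PB1 than in CTR (log2 fold change -4.18, standard error 0.25, limma adjusted p = 6.25e-08) and 3.79-fold lower in LPS + PB1 than in LPS (log2 fold change -1.92, standard error 0.11, limma adjusted p = 3.64e-06). Adding LPS to PB1 raised MMP10 3.94-fold over PB1 alone (limma adjusted p = 3.16e-05), and its interaction of 2.26 was positive like that of TIMP3 (limma adjusted p = 2.71e-05). TIMP3 and MMP10 therefore both fell with PB1 in resting cells and both were higher in LPS + PB1 than in PB1, whereas between LPS and LPS + PB1 TIMP3 rose and MMP10 fell. The first of these comparisons called 10.4% of all transcripts as lower, and the second 14.5% as higher. Both use the PB1 libraries and are not independent, and the share of transcripts with both calls is not given here.

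ADAM19, a membrane-bound sheddase of growth factor precursors, had 77.5, 68.4, 67.6 and 75.7 in CTR and 8, 10.9, 10.4 and 14.8 in PB1. It fell 6.71-fold after PB1 (log2 fold change -2.75, standard error 0.16, limma adjusted p = 4.35e-08). In LPS + PB1 it had 81.3, 94.7, 46.3 and 39.4, which was 5.69-fold higher than in PB1 (limma adjusted p = 5.69e-05), and in LPS 104, 103, 58.5 and 62.7. ADAM19, like MMP10, thus shared with TIMP3 the fall after PB1 alone and the higher level after LPS + PB1 than after PB1, but it was not called in LPS against CTR. The shared calls again rest on the same PB1 libraries. In LPS against CTR the pairs had opposite signs for ADAM19. Its log2 fold change was 0.50 in replicates 1 and 2 and -0.24 in replicates 3 and 4, both under the fold limit. ADAM19 was not called in LPS + PB1 against CTR either, except within replicates 3 and 4 (log2 fold change -0.74). MMP16, a membrane-type MMP, was 1.63-fold lower in LPS than in CTR (limma adjusted p = 0.00352) and 1.71-fold lower in LPS + PB1 than in CTR (limma adjusted p = 0.009). When each pair was averaged both calls of MMP16 were lost (limma adjusted p = 0.0704 and 0.138), and the latter also within replicates 3 and 4 (log2 fold change -0.51).

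Among the binding partners, ITGA3, the integrin chain with which TIMP2 pairs on human endothelial cells, was 2.49-fold higher in LPS than in CTR (limma adjusted p = 0.0112) and 1.97-fold higher in PB1 than in CTR (limma adjusted p = 0.00149). In LPS + PB1 it was 2.85-fold lower than in LPS (limma adjusted p = 0.0071) and 2.25-fold lower than in PB1 (limma adjusted p = 0.000579). Within replicates 1 and 2 the log2 fold change of ITGA3 was 0.33 for LPS against CTR and 0.42 for PB1 against CTR, both under the fold limit, while within replicates 3 and 4 it was 2.31 and 1.53. On the means of the pairs, the limma adjusted p of ITGA3 was 0.129 for LPS against CTR and 0.165 for LPS + PB1 against LPS. Between LPS + PB1 and CTR, where ITGA3 was not called, the pairs had opposite signs, with -0.99 in replicates 1 and 2 and 0.60 in replicates 3 and 4. IGF1R, the receptor of insulin-like growth factor 1, was 1.75-fold lower in LPS than in CTR (limma adjusted p = 3.5e-05) and 1.51-fold lower in LPS + PB1 than in CTR (limma adjusted p = 0.00226). The latter call was lost without replicate 4 of LPS + PB1 (log2 fold change -0.51) or replicate 3 of CTR (-0.55), within replicates 1 and 2 (-0.37) and with the pair means (limma adjusted p = 0.0951). LRP1, the endocytic receptor that clears TIMP3 with its bound proteases in mammals, and ITGB1, the beta chain that joins ITGA3, were not called in any comparison of 4 replicates per group. Replicates 1 and 2 alone, however, called LRP1 as higher in LPS than in CTR (log2 fold change 0.94) and PB1 (0.64) and as lower in LPS + PB1 than in LPS (-0.67), and replicates 3 and 4 gave -0.14, 0.20 and -0.33. The group means of LRP1 and ITGB1 were 4919.7 to 6901 and 5554 to 6643.

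**Figure D5:**
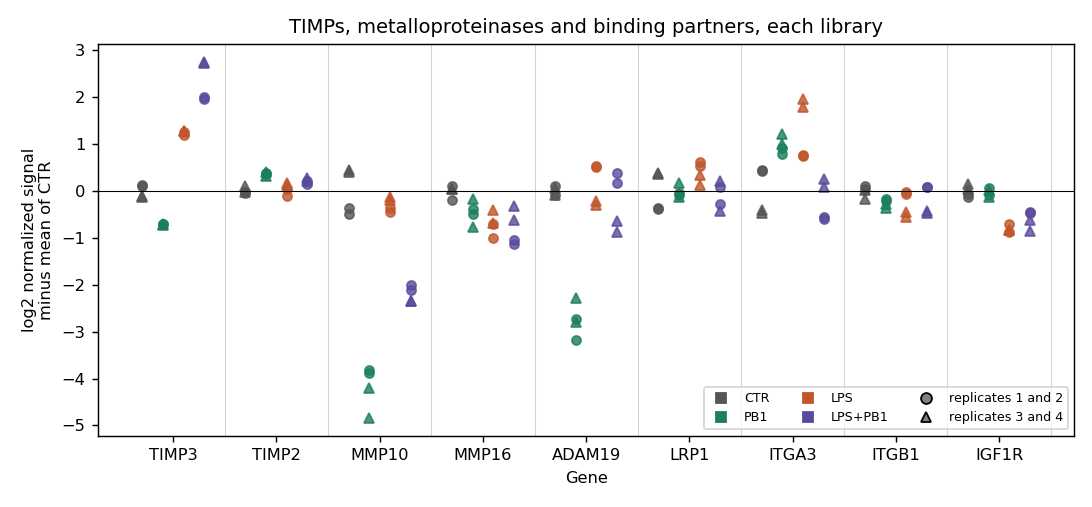
Log2 normalized signal minus the mean of CTR for TIMP3, TIMP2 and the 7 tested genes of the metalloproteinase list, in each library. Colours are groups, circles are replicates 1 and 2 and triangles replicates 3 and 4. MMP10 and ADAM19 are lowest in PB1, and MMP10 stays low in LPS + PB1, where TIMP3 is highest.

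By list and direction, 1 of the 7 genes was higher and 2 were lower in LPS than in CTR, 1 and 2 in PB1 than in CTR, and 0 and 3 in LPS + PB1 than in CTR. In LPS + PB1, 0 were higher and 2 lower than in LPS, and 2 were higher and 1 lower than in PB1. Between LPS and PB1, 2 were higher and 1 lower in LPS. These small counts stand beside the shares of 16.7% to 29.3% of all transcripts called in the same comparisons. For the interaction, 2 of the 7 were positive and 1 was negative at a limma adjusted p of at most 0.05. The positive ones were ADAM19 (2.38) and MMP10 (2.26), and the negative one, opposite to TIMP3, was ITGA3 (-2.49). Of all transcripts, 44.9% passed this limit.

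Markers of other cell types moved between the groups as well. The summed signal of the 10 fibroblast markers ran from 50994 to 54331 in PB1, 60484 to 88911 in LPS + PB1, 77483 to 108311 in LPS and 83483 to 100483 in CTR. This sum was thus lower, like TIMP3, in PB1 than in CTR, but its mean was lower in LPS + PB1 (74333) than in LPS (92856), where TIMP3 went up. Single markers diverged, as DCN went from a mean of 5556 in LPS to 1886 in LPS + PB1 and CCN2, a matricellular growth factor modulator, from 2292 to 7621. From CTR to PB1 the mean of COL1A2, the largest part of the sum, went from 43407 to 16331. Over the same step LOX and COL6A2, also of this list, went up, from 5049 to 8127 and from 14233 to 15868. The epithelial (3 of 10 matched), endothelial (1 of 8) and lymphocyte (1 of 10) markers had at most 21 reads in any library. The part of these lists in the TIMP3 result was not tested.

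The genes whose pattern was most like that of TIMP3 were sought among 1299 transcripts with a symbol, by Pearson r of the log2 signal over the 16 libraries. The 5 closest were SPTLC2, a subunit of serine palmitoyltransferase in sphingolipid synthesis (r = 0.954), PRPH2, a photoreceptor disc protein (r = 0.948), TXNRD1, the cytosolic thioredoxin reductase (r = 0.945), ID3, an inhibitor of basic helix-loop-helix factors (r = 0.941), and OAF (r = 0.939). TXNRD1 had means of 834 with PB1, 1104 in CTR, 1878 in LPS and 2711 with both agents, and ID3 of 6.26, 33, 48.9 and 478. Both kept the order of TIMP3, in steps of different size. For TIMP2 the closest were PCDHGC5 (r = 0.887), which shares exons with other protocadherins and is therefore uncertain, CAT, the peroxide-degrading catalase (r = 0.878), PERPB (r = 0.876), NTSR1, the neurotensin receptor (r = 0.869), and AXL, a receptor tyrosine kinase (r = 0.865). For NTSR1 the means were only 0.38 in CTR, 0.508 in LPS and 1.4 in LPS + PB1, against 12.2 in PB1. Its r thus rested largely on a single group, and NTSR1 passed the filter on low values only through that group. CAT had means of 171 in CTR, 187 in LPS, 194 in LPS + PB1 and 224 in PB1. These values describe libraries that share their groups and pairs, and only 3 of the 5 genes for TIMP3 and 2 of the 5 for TIMP2 were also among the closest by Spearman rho, and 1 of each by the group means.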

How the data were processed

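The data were whole-cell RNA-seq of 16 HD11 libraries. Reads had been mapped to GRCg7b by HISAT2 and assigned to genes by HTSeq. What the authors deposited is a scaled signal and no raw count. Each library has its own step (2.9738 to 5.5283), and 100.0% of its values were this step times the reads plus 1, cut to a whole number, a scaling not given in the sources used here. Reads were inferred from the steps. Symbols were matched for 1697 of 1702 curated and 0 of 4790 predicted accessions.

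TMM factors (0.936 to 1.071) and the filter on low values (minimum count 10, minimum total 15) were computed on the inferred reads. Log2 values, with no pseudocount beyond the added read, were compared with limma 3.58.1 (trend) in R 4.3.3, with the groups compared in each fit and Benjamini-Hochberg adjustment over all transcripts tested. Other values were computed in Python 3.11.15. The scripts were tested on simulated data without the split into pairs of replicates, so calls under that split were not checked. The genes, lists and alternatives were chosen with earlier results of these data known. The genes named are both TIMPs, the matched genes of the metalloproteinase list with values where called, and the 5 closest in pattern to each TIMP. Intervals on reads cover counting error only.

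Alternatives were RLE factors, no filter, a pseudocount of 1, all libraries in 1 fit, the replicate number as a block, no fold limit, each library left out, each pair of replicates alone and the means of the pairs. Same-numbered libraries of LPS + PB1 and LPS deviated together, with correlations of 0.47 to 0.58 over transcripts for the 4 numbers of the labels. For replicates 1 and 2 of LPS + PB1, however, an LPS library with another number correlated better. In the other comparisons at least 1 number was under 0.1, and the numbers were not read as pairs. Promoter and protein sequences were not used here, and a further matched macrophage marker is not reported here.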

Additional observations from a re-analysis of the deposited data

Results flagged for a closer look

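The effect of LPS on TIMP3 differed between cells without and with PB1. The interaction of the 2 treatments was 1.82 on the log2 scale (standard error 0.22, limma adjusted p = 4.38e-06, 16 libraries), and it was this test of the difference itself that marked the result for a closer look. Of all transcripts tested, 44.9% had an interaction with an adjusted p of at most 0.05, and 9.63% had one at least as large in size. All 4 PB1 libraries were below all 4 CTR libraries, and all 4 LPS + PB1 libraries above all 4 LPS libraries. The groups also did not overlap for 42.3% and 34.8% of the transcripts tested in these comparisons. No library stood apart from the other 3 of its group by Dixon's test in the 12 sets checked, which were the levels of TIMP3, of TIMP2 and their ratio in each group. That test looks for a single stray library and cannot show a split into pairs of replicates, such as that of TIMP3 in LPS + PB1.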

How the results depend on the processing

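TIMP3 kept its direction in all 6 comparisons and the interaction under every alternative run, and its call under all except 1, the means of the pairs of replicates in LPS + PB1 against LPS (log2 fold change 1.11, limma adjusted p = 0.148). TIMP2 stayed uncalled in the same runs, except for its interaction within replicates 1 and 2 (-0.20, limma adjusted p = 0.0405) and, with no fold limit, for PB1 against CTR and LPS against PB1. With each library left out, TIMP3 ranged from 1.21 to 1.29 in LPS, -0.75 to -0.67 in PB1 and 2.24 to 2.50 in LPS + PB1 against CTR, from 0.98 to 1.25 in LPS + PB1 against LPS, and from 1.69 to 1.96 for the interaction. With the replicate number as a block, TIMP3 in LPS + PB1 against LPS had a limma adjusted p of 0.000587, and the number of transcripts called went from 805 to 931. The block lost 1 call of those named, ITGA3 in LPS against CTR (limma adjusted p = 0.0522), where the numbers were not read as pairs.

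The log2 ratio of TIMP3 to TIMP2, within replicates 1 and 2 and within replicates 3 and 4, was -1.23 and -0.92 between PB1 and CTR, 1.64 and 2.65 between LPS + PB1 and CTR, 0.54 and 1.38 for LPS + PB1 against LPS, 2.87 and 3.57 for LPS + PB1 against PB1, and 2.33 and 2.19 for LPS against PB1. Without the fold limit the counts of calls rose from 754 to 1429 (LPS), 936 to 1961 (PB1) and 796 to 1396 (LPS + PB1) against CTR, from 805 to 1455 and 1326 to 2233 in LPS + PB1 against LPS and PB1, and from 1138 to 2153 in LPS against PB1. With 2 pair means per group they were 388, 295 and 131 for LPS and LPS + PB1 against CTR and LPS + PB1 against LPS, and 950 for the interaction instead of 2088. These pair means leave fewer samples per group. DESeq2 and edgeR were planned and not run, because the deposited values were treated as a scaled signal. The reads inferred from them were not put through these count tests.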
